A study of Mus musculus with 21 samples.

Results

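The comparison described here set a clonal line of mouse embryonic stem cells (ESCs) named SLC16A1 clone 2 against a line named chr8A, both grown in SL medium. It used 6 of the 21 libraries of the study, namely 3 of clone 2 and 3 of chr8A, taken from the column names of the deposited count table. Of the 40838 genes in that table, 17178 had enough reads to be tested. ESCs are pluripotent cells taken from the early embryo that keep dividing in culture. All lines were grown for 48 h in a mixture of DMEM and NB media with 10% dialyzed serum and 0.2 mM pyruvate. From usage in the field, SL was taken to mean serum plus leukemia inhibitory factor (LIF), and SL2i to mean SL plus 2i, which inhibits the kinases GSK3B and MEK. The same table held clone 1, a second SLC16A1 line, with 3 libraries in SL, and 2 libraries of each of the 3 lines in SL2i. Clone 2 and chr8A are each 1 line, and their replicates are libraries of that line, and p-values reflect the spread between libraries alone, which may be technical. The sources used here do not give how the clones were altered or whether and how chr8A was, and chr8A was read as the control line.

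Slc16a1 encodes MCT1, a transporter that carries pyruvate, lactate and other small monocarboxylates together with a proton across the plasma membrane. In cells, pyruvate and lactate are exchanged by lactate dehydrogenase, which at the same time exchanges NADH and NAD+, and pyruvate also feeds the tricarboxylic acid cycle through pyruvate dehydrogenase. Mouse ESCs in serum and LIF keep a naive pluripotent network of transcription factors beside weak expression of genes of the formative state, the next step towards differentiation. FGF signalling through ERK favours that step, LIF acts against it through STAT3, and 2i blocks ERK signalling and raises Wnt signalling.

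Total counts were 15802072, 30095594 and 30145771 in the clone 2 libraries in SL, against 23103813, 25045069 and 24996127 in the chr8A libraries in SL. Levels below are in CPM, read counts scaled to the size of each library, and a difference is a log2 fold change of clone 2 over chr8A, so that 1 is a doubling in clone 2. The value after ± is an approximate standard error, the size of the difference over the square root of edgeR's quasi-likelihood F statistic. It can be too small where a group holds few reads. A difference was called when the adjusted p of edgeR's quasi-likelihood test was under 0.05. The median of this approximate standard error over the genes tested was 0.0782. Between libraries of the same line, counts differed by more than sampling noise in every pair, with a chi-square per degree of freedom of 1.87 to 4.44 among clone 2 libraries and of 4.80 to 13.95 among chr8A libraries, the highest value being that of chr8A replicates 1 and 3. The 10 pluripotent cell markers summed to 5377 to 5464 CPM in clone 2 and 5007 to 5352 CPM in chr8A, whereas mesoderm markers summed to 10.6 to 11.8 CPM in clone 2 and 11.2 to 11.8 CPM in chr8A, with no read of T in any of the 6 libraries.

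Slc16a1 was lower in clone 2 without being lost. It had 92.8, 91.4 and 96.5 CPM in the clone 2 libraries, against 195, 201 and 198 CPM in the chr8A libraries. All clone 2 libraries lay below all chr8A libraries, and the fitted level in clone 2 was 47.3% of that in chr8A (log2 fold change -1.08 ± 0.034, adjusted p = 9e-50). In a count per gene, RNA that codes for the transporter cannot be told from RNA that no longer does. In SL2i the level was 78.7 and 78.5 CPM in clone 2 and 157 and 167 CPM in chr8A, a log2 fold change of -1.04, and the difference between media was not called (-0.038, adjusted p = 0.76).

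Among all genes tested, 26.9% were called, with 14.3% higher and 12.6% lower in clone 2, and every count of list members below is to be read against these shares. Of 29 tested genes for the transport and use of pyruvate and lactate, 9 were higher, 3 were lower including Slc16a1 itself, and 17 did not pass, with a median log2 fold change of 0.057 beside -0.00032 for all genes. The 3 lower became 5 without clone 2 replicate 2. Among the carriers, Slc16a3, which encodes MCT4, had 179, 172 and 179 CPM in clone 2 and 139.5, 146 and 149 CPM in chr8A (0.28 ± 0.035, adjusted p = 3e-10). The chaperones that bring MCTs to the membrane were also higher. Bsg, which encodes basigin, the partner of MCT1 and MCT4, had 351, 334 and 350.4 CPM in clone 2 and 304, 316 and 317 CPM in chr8A (0.15, adjusted p = 2.9e-05). Emb, which encodes embigin, the partner of MCT2, had 326, 329.5 and 342 CPM in clone 2 and 269, 251 and 263 CPM in chr8A (0.35), and 8.03% of its sequence is shared with other genes. The dehydrogenase subunits moved apart. Ldha, the subunit that dominates in glycolytic tissue, had 1729, 1661 and 1716 CPM in clone 2 and 1452, 1443 and 1407 CPM in chr8A (0.25 ± 0.028, adjusted p = 7.3e-12). Ldhb, the subunit that dominates in oxidative tissue, had 103, 104 and 106 CPM in clone 2 and 136, 139 and 134 CPM in chr8A (-0.39 ± 0.035, adjusted p = 1.2e-16). Of the pyruvate dehydrogenase complex, Pdhb (0.24) and Pdhx (0.26) were higher and the X-linked Pdha1 (-0.10, with 14.1% of its sequence shared) was lower. The mitochondrial pyruvate carrier genes Mpc1 (-0.011) and Mpc2 (-0.13) and the 4 pyruvate dehydrogenase kinases (log2 fold changes of -0.26 to 0.094) did not pass.

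The smallest adjusted p-values of the comparison belonged to Peg3 and Plagl1, which are imprinted. Imprinted genes are transcribed mainly from the copy of 1 parent, and DNA methylation differs between the parental copies at the regions that control them. Plagl1, a paternally expressed zinc finger factor that acts on other imprinted genes, had 0.31, 0.13 and 0.359 CPM in clone 2, against 42.3, 38.9 and 45.4 CPM in chr8A. The clone 2 libraries held 20 reads of it in all, against 3182 reads in the chr8A libraries, so it was close to silent in clone 2. The fitted level was 0.629% of that in chr8A (-7.31 ± 0.13, adjusted p = 4.4e-71), where ± 0.13 understates the counting error of the 20 reads in clone 2. Peg3, a paternally expressed zinc finger gene, had 92.8, 101 and 94.7 CPM in clone 2 and 445, 434 and 439 CPM in chr8A, a level of 22.0% (-2.19 ± 0.032, adjusted p = 2.6e-80). Usp29, which lies beside Peg3 and is expressed from the same parental copy, had 2.54, 2.19 and 2.32 CPM in clone 2 and 10.6, 9.59 and 10.4 CPM in chr8A (-2.13 ± 0.14, adjusted p = 1.3e-23). Zim1, the maternally expressed neighbour of that cluster, had 2.42, 3.2 and 2.74 CPM in clone 2 and 2.42, 2.64 and 1.75 CPM in chr8A and did not pass (0.32, adjusted p = 0.27).

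The 250 bases before the annotated starts of Plagl1 and Peg3 are shown because these genes had the smallest adjusted p-values and because promoters of imprinted genes are often rich in CG pairs, the sites that mammalian DNA methylation uses. Capitals mark each CG, the sequences are from RefSeq on build GRCm38.p6, an older build than that of the counts, and no methylation was measured here.
Plagl1, chr10:13090582-13090831, plus strand: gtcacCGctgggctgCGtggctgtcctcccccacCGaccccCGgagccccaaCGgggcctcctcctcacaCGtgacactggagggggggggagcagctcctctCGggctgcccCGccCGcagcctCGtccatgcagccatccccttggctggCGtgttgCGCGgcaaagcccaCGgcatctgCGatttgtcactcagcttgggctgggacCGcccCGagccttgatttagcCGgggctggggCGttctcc
Peg3, chr7:6730420-6730669, minus strand: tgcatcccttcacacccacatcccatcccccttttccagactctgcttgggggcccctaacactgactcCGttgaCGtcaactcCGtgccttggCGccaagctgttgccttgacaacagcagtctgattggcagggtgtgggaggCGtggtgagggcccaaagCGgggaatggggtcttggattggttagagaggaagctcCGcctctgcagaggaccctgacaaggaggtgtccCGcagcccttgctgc
The Plagl1 window holds 19 CG pairs, and 80.3% of the 32851 windows of the same length before annotated starts hold fewer. The Peg3 window holds 8, and 57% hold fewer, the median being 6. Genes can have further starts that these windows do not cover.

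The oppositely imprinted pair on chromosome 7 fell together. Igf2, a paternally expressed growth factor, had 129.7, 139.7 and 127 CPM in clone 2 and 237, 212 and 235 CPM in chr8A (-0.78 ± 0.044, adjusted p = 1.3e-13). H19, the maternally expressed non-coding RNA beside it, had 0.868, 0.815 and 0.816 CPM in clone 2 and 2.3, 2.29 and 2.41 CPM in chr8A (-1.49 ± 0.25, adjusted p = 1.3e-06). Most other imprinted genes moved little. Of 24 tested genes listed as paternally expressed, 6 were higher and 4 lower, the 4 being Plagl1, Peg3, Usp29 and Igf2, and the list's median was 0.015. Of 25 tested genes listed as maternally expressed, 6 were higher and 6 lower, with a median of 0.038. Zdbf2 had 319, 343 and 326 CPM in clone 2 and 277, 274 and 258 CPM in chr8A (0.29), Magel2 differed by 0.49 and Impact by 0.17. The maternally expressed Rian was at 412, 443 and 426 CPM in clone 2 and 365, 365 and 371 CPM in chr8A (0.22), while its neighbour Meg3 was not called (0.027). Peg10, a highly expressed gene on chromosome 6, was at 1060.3, 1078 and 1028 CPM in clone 2 and 1092, 997 and 1066 CPM in chr8A and did not differ beyond the spread (0.0047, adjusted p = 0.93).

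**Figure D1:**
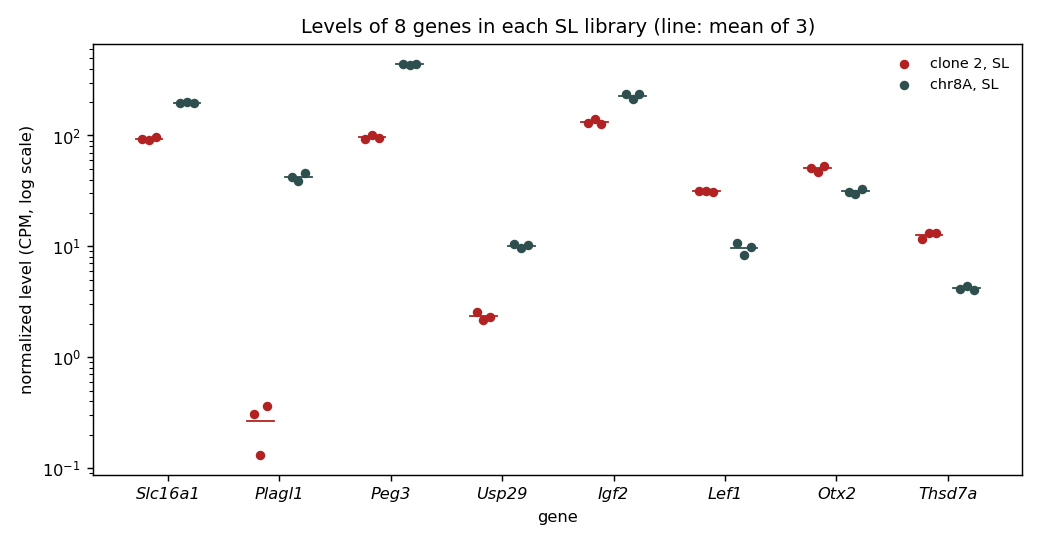
Normalized level of 8 genes in each SL library, in CPM on a log axis, with clone 2 libraries left of chr8A libraries and a line at the mean of 3. The groups do not overlap for any of the 8, as for 38.7% of all genes tested. For those of the 8 picked by a rule that required groups without overlap, this separation follows from the rule. Plagl1 lies under 0.5 CPM in every clone 2 library.

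In all, 4618 of 17178 genes were called (26.9%), 2452 higher and 2166 lower in clone 2. Most differences were small. At least 1.5-fold, 138 genes were higher (0.803% of those tested) and 285 lower (1.66%). At least 2-fold, 46 were higher (0.268%) and 107 lower (0.623%). With every library thinned to the same total of 9784408 counts, 2900 genes were called, 1461 higher and 1439 lower. The 3 libraries of clone 2 and the 3 of chr8A did not overlap for 6652 genes (38.7%).

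**Figure D2:**
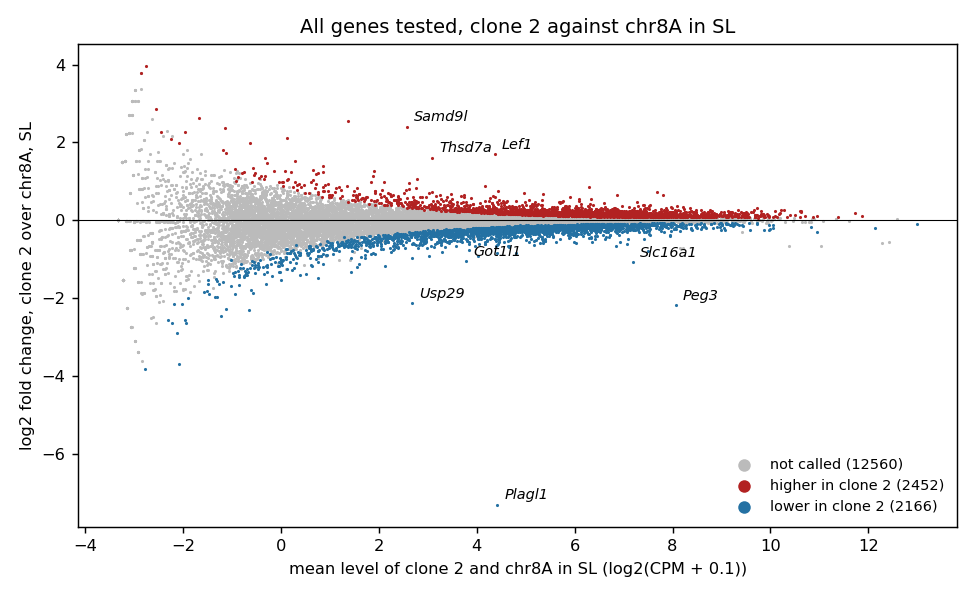
Log2 fold change of clone 2 over chr8A in SL against the mean level of both groups, log2(CPM + 0.1), for the 17178 genes tested, with 2452 called higher and 2166 called lower. Most called genes lie near 0, and Plagl1, Peg3, Usp29, Slc16a1, Lef1, Thsd7a and Samd9l lie away from the rest at their level.

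Where the mean level was 3 log2 CPM or more, Lef1 had the largest difference of those higher in clone 2. Lef1, a transcription factor that pairs with beta-catenin at Wnt target genes, had 31.8, 31.7 and 30.7 CPM in clone 2 and 10.7, 8.35 and 9.85 CPM in chr8A. Every clone 2 library held over 2-fold more than any chr8A library (1.70 ± 0.076, adjusted p = 3.2e-37). Thsd7a, which encodes a membrane protein with thrombospondin repeats, had 11.5, 13.2 and 13.1 CPM in clone 2 and 4.13, 4.35 and 4.01 CPM in chr8A (1.61 ± 0.11, adjusted p = 2.5e-22). Cdh2, which encodes N-cadherin, had 22.6, 23.2 and 24 CPM in clone 2 and 11.9, 12.7 and 13.6 CPM in chr8A (0.87 ± 0.076, adjusted p = 2.7e-17). The next were genes of mixed functions. Ttn, which encodes the sarcomere protein titin, had 26.9, 27.7 and 26.5 CPM in clone 2 and 14.9, 14.8 and 18.5 CPM in chr8A (0.75 ± 0.082). Ccnd2, a D-type cyclin, had 9.99, 10.2 and 9.73 CPM in clone 2 and 6.64, 6.21 and 5.57 CPM in chr8A (0.70 ± 0.11). Arhgef26, an exchange factor for small GTPases, differed by 0.72, the splicing factor gene Akap17a by 0.70, Nckap1l, a subunit of the actin-regulating WAVE complex in blood cells, by 0.67, and Rasef, a GTPase gene, by 0.66. Samd9l, an interferon-induced gene whose mean lay under that level and which was picked after its values were seen, had 10.5, 9.26 and 9.8 CPM in clone 2 and 2, 2.1 and 1.44 CPM in chr8A (2.40 ± 0.14).

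On the lower side, after the imprinted genes and Slc16a1, came Got1l1, which resembles the cytosolic aspartate aminotransferase Got1. It had 8.25, 9.62 and 8.42 CPM in clone 2 and 19, 17.9 and 18.3 CPM in chr8A (-1.06 ± 0.093, adjusted p = 5e-17). Pmp22, a membrane protein of myelin and epithelia, had 12.2, 12.1 and 9.8 CPM in clone 2 and 22.3, 18.7 and 22.7 CPM in chr8A (-0.91 ± 0.087). Trim67, a ubiquitin ligase gene known from neurons, had 20.6, 21.8 and 17.1 CPM in clone 2 and 33.4, 34.9 and 38.1 CPM in chr8A (-0.85 ± 0.07). That these did not overlap between the lines follows from the rule by which they were picked. Plac8 had 16.6, 13.9 and 15.7 CPM in clone 2 and 27.1, 28 and 26.9 CPM in chr8A (-0.84 ± 0.074). Septin4, a filament-forming GTPase, differed by -0.92, Stard8, a GTPase-activating protein, by -0.82, and Vash1, which removes tyrosine from tubulin, by -0.75. Krt7, a keratin of simple epithelia and trophoblast, had 18.7, 20.5 and 18 CPM in clone 2 and 33.4, 29.7 and 29.9 CPM in chr8A (-0.70 ± 0.068, adjusted p = 5.9e-15).

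Some differences lay side by side on a chromosome. Where genes with a mean level of 1 log2 CPM or more were ordered along the chromosomes by RefSeq, 12 runs of at least 3 neighbours were called in the same direction by over 0.3. The longest, of 8 genes, was on chromosome 8. In the stretch from Klf2 to Sin3b, drawn around that run after its values were seen, all 10 genes had negative values and 9 were called, with a median of -0.55 and a range of -0.67 to -0.39, while 5.24% of all genes tested were called lower by over 0.3. Sin3b, a scaffold of histone deacetylase complexes, had 112, 104 and 103 CPM in clone 2 and 156, 166 and 165 CPM in chr8A (-0.62 ± 0.034). Eps15l1, an endocytosis adaptor, had 96.1, 99.2 and 101 CPM in clone 2 and 141, 148 and 149 CPM in chr8A (-0.56 ± 0.034). Med26, a Mediator subunit, had 29.6, 25.8 and 25.8 CPM in clone 2 and 39.4, 40.1 and 39.6 CPM in chr8A (-0.57 ± 0.056). Within the stretch Nwd1 was the gene not called (-0.53, adjusted p = 0.051, or 0.029 without clone 2 replicate 2), and Cherp and 1700030K09Rik share 10.8% and 16.3% of their sequence with other genes. Of the 8 genes before the stretch, 6 were called higher, and of the 8 after it, 4 were called higher and 1 lower, with medians of 0.15 and 0.093. Clone 1 had a median of -0.54 over the same 10 genes against the same chr8A libraries, and in SL2i, in separate libraries of the same lines, clone 2 had a median of -0.63 with 9 called. Between clone 2 and clone 1 only Cherp was called (0.10, adjusted p = 0.026), and no difference between the clones exceeded 0.22. A difference shared by both clones against the same 3 libraries can lie with chr8A or with the clones, and these cannot be told apart here.

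A second run, on chromosome 6, held Ndufa4, Phf14 and Thsd7a. Ndufa4, a subunit of the cytochrome c oxidase complex, had 262, 257 and 253 CPM in clone 2 and 158, 156 and 151 CPM in chr8A (0.73 ± 0.031, adjusted p = 2.8e-38). Phf14, a histone-binding protein, had 101, 103 and 98.8 CPM in clone 2 and 56.5, 60.1 and 51.4 CPM in chr8A (0.85 ± 0.041). The genes that flank them, Ica1 (0.10) and Tmem106b (-0.16), moved little. Here the clones differed. Clone 1 against chr8A was at -0.032 for Ndufa4, 0.13 for Phf14 (adjusted p = 0.039) and 0.33 for Thsd7a (adjusted p = 0.088). Clone 2 exceeded clone 1 by 0.76 for Ndufa4 (adjusted p = 1.3e-38), 0.72 for Phf14 (adjusted p = 3.9e-27) and 1.28 for Thsd7a (adjusted p = 3.9e-15). Another run on chromosome 6 joined Samd9l, Vps50 (0.37) and Calcr (0.47, adjusted p = 0.0029, or 0.36 and 0.052 without chr8A replicate 3). The medians of the autosomes and the X stayed between -0.028 and 0.039, and the 8 tested genes of the Y had a median of 0.095.

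**Figure D3:**
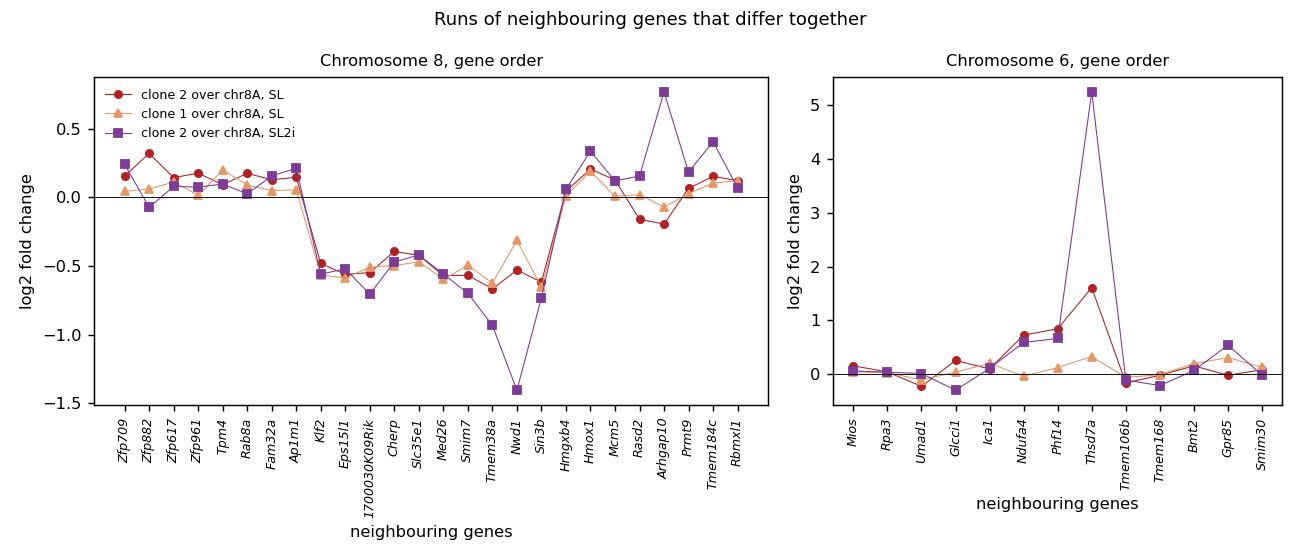
Log2 fold changes of neighbouring genes on chromosome 8 and chromosome 6, in gene order, for clone 2 over chr8A in SL, clone 1 over chr8A in SL and clone 2 over chr8A in SL2i. From Klf2 to Sin3b all 3 comparisons lie below 0. Ndufa4 lies at -0.032 and Phf14 at 0.13 in clone 1, and both lie above 0.5 in clone 2 in both media.

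Genes of the formative state were higher in clone 2. All 17 tested members were called higher by edgeR, and 0 were lower, also at an unadjusted p under 0.05. By DESeq2 15 were higher, the median was 0.42, and only 4 of the 17 reached 1.5-fold. The 17 became 13 at equal depth and 15 without chr8A replicate 3. As in every list, members were chosen with earlier results of these data known, so the count is not independent of these data. Besides Lef1 and Cdh2, Otx2, a homeobox factor that drives exit from the naive state, had 50.9, 47.2 and 53 CPM in clone 2 and 31, 29.7 and 33.2 CPM in chr8A (0.69 ± 0.055, adjusted p = 3.9e-19). Pou3f1, a POU factor of the epiblast, had 137, 141 and 142 CPM in clone 2 and 113, 109.5 and 106 CPM in chr8A (0.36 ± 0.037). Zic2, a zinc finger factor that opens formative enhancers, had 61.5, 61.6 and 66 CPM in clone 2 and 45.1, 44 and 46 CPM in chr8A (0.49 ± 0.047). In each the lines did not overlap, as for 38.7% of all genes tested, and for Otx2 this follows from the rule by which it was picked. Fgf5, the textbook marker of the epiblast after implantation, was low, at 13.4, 12.4 and 12 CPM in clone 2 and 9.14, 8.35 and 9.38 CPM in chr8A (0.48 ± 0.1, adjusted p = 7.5e-05). Fgf15 differed by 0.63, Foxd3 by 0.57 and Enpp2, which makes lysophosphatidic acid, by 0.42. The de novo methyltransferases rose by less, Dnmt3b being at 1358, 1344 and 1367 CPM in clone 2 and 1100.4, 1150.0 and 1119 CPM in chr8A (0.27), and Dnmt3a at 252, 261 and 259 CPM in clone 2 and 215, 218 and 207 CPM in chr8A (0.27). In bulk RNA, more cells in a state and more RNA per cell cannot be told apart, here and for every list that follows.

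The naive network moved in both directions. Of 21 tested genes, 10 were lower and 5 higher, with a median of -0.056. The 5 higher became 1 without chr8A replicate 1 or clone 2 replicate 3, 2 without chr8A replicate 3 and 3 without clone 2 replicate 2, while the 10 lower remained 9 or 10 in number without any single library. Klf2, which lies in the chromosome 8 stretch, had 81.6, 80.7 and 82.9 CPM in clone 2 and 110.4, 121 and 111 CPM in chr8A (-0.48 ± 0.035, adjusted p = 4.1e-22). Tfcp2l1, a target of LIF and STAT3, had 164, 162 and 159.7 CPM in clone 2 and 208, 204 and 208 CPM in chr8A (-0.35 ± 0.03, adjusted p = 1.7e-17). Tbx3 (-0.31), Tcl1 (-0.32) and Dppa3 (-0.25) were lower, and Nanog (-0.15, 5.4% shared), Zfp57 (-0.16) and Esrrb (-0.13) by less. Klf4 (0.081) and Fgf4 (0.0079) were not called. Of 12 core pluripotency genes, 7 were higher and 1 lower (median 0.10). Pou5f1, which encodes OCT4, had 1202, 1164 and 1175 CPM in clone 2 and 1018, 1039 and 969 CPM in chr8A (0.23 ± 0.028, adjusted p = 8.8e-11). Tdgf1, a coreceptor for Nodal, had 823, 830.2 and 837 CPM in clone 2 and 699, 731 and 714 CPM in chr8A (0.22). Sox2 was not called (-0.067, adjusted p = 0.072, or 0.0038 without chr8A replicate 3 and 0.048 without clone 2 replicate 2), and the lower gene was Fbxo15 (-0.24).

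Of 21 genes read as output of ERK signalling, 13 were higher and 2 lower, with a median of 0.16. Egr1, an immediate early factor, had 50.5, 45.7 and 47.4 CPM in clone 2 and 33.2, 35.4 and 30.6 CPM in chr8A (0.53 ± 0.09, adjusted p = 0.00034). Etv1, an ETS factor, had 27.7, 27.1 and 26.2 CPM in clone 2 and 17.3, 20.4 and 21.2 CPM in chr8A (0.45 ± 0.066). Myc had 74.6, 72.9 and 72.9 CPM in clone 2 and 58.7, 56.2 and 55.2 CPM in chr8A (0.37 ± 0.043, adjusted p = 1.6e-11). Of the feedback inhibitors of the pathway, the Sprouty genes Spry4 (0.24) and Spry2 (0.23), the Spred genes Spred1 (0.09), Spred2 (0.13) and Spred3 (0.33) and the phosphatase Dusp6 (0.13) were higher, and Spry1 (-0.25) and the phosphatase Dusp4 (-0.16) lower. Dusp6 lost its call without chr8A replicate 3 (adjusted p = 0.096), Spred2 without clone 2 replicate 2 (adjusted p = 0.075), and Spred1 without any single library other than chr8A replicate 2. Epha2 was at 400.2, 381 and 373 CPM in clone 2 and 331, 331 and 334 CPM in chr8A (0.21). Ccnd1 was also higher (0.33), with 22.3% of its sequence shared. Of 17 genes of LIF and STAT3 signalling, 6 were lower and 2 higher, or 1 higher without chr8A replicate 1 or clone 2 replicate 3 (median -0.046). Besides Tfcp2l1, the kinase genes Pim3 (-0.27), Pim1 (-0.12) and Jak1 (-0.14) were lower, Junb (0.17, 6.55% shared) was higher, and Stat3 (0.048) and Socs3 (-0.071) were not called.

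Of 16 Wnt targets, 5 were higher, 2 lower and 9 not called (median -0.011). Lef1 apart, Sp5, a direct target, had 5.58, 4.47 and 3.92 CPM in clone 2 and 2.3, 2.56 and 3.39 CPM in chr8A (0.71 ± 0.15, adjusted p = 8.6e-05). The lower genes were Dkk1, a secreted Wnt inhibitor with 0.186, 0.0326 and 0.163 CPM in clone 2 and 0.585, 0.427 and 0.779 CPM in chr8A (-2.28 ± 0.56, adjusted p = 0.00088, or 0.062 at equal depth), and Lrp5, a coreceptor (-0.18). Tcf7 was not called (-0.068). Of 20 genes of Nodal and BMP signalling, 4 were higher and 7 lower (median -0.084). The Nodal inhibitors Lefty1 and Lefty2, which resemble each other and share 26.3% and 18.7% of their sequence with other genes, were lower. Lefty1 had 140.4, 145 and 145 CPM in clone 2 and 193, 197 and 207 CPM in chr8A (-0.47 ± 0.033, adjusted p = 4.8e-23). Lefty2 had 92.7, 89.9 and 93 CPM in clone 2 and 117, 119 and 122 CPM in chr8A (-0.38 ± 0.035). Nodal itself was not called (0.036), and Furin, a protease that processes it, was lower (-0.32). The BMP targets differed in sign, Id1 with 63.6, 57.6 and 57.7 CPM in clone 2 and 43.3, 43.5 and 41.7 CPM in chr8A (0.47 ± 0.056), Id3 at 0.33 and Id2 at -0.18. Fst, which encodes the activin inhibitor follistatin, was higher (0.80) and Bmp7 lower (-0.72).

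**Figure D4:**
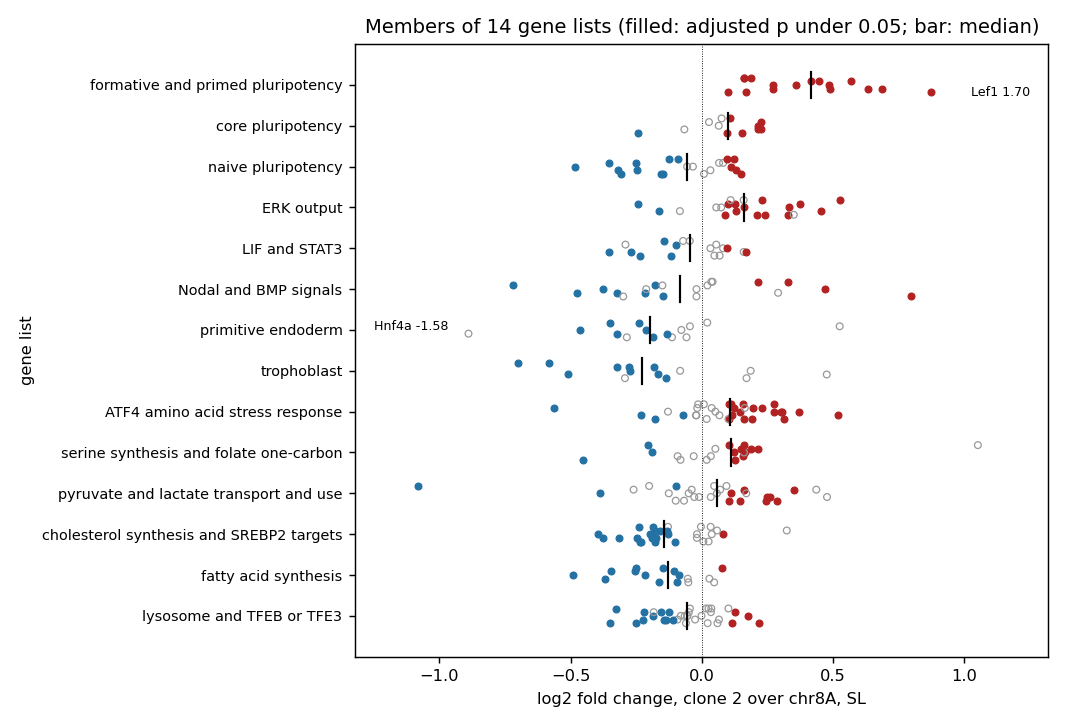
Log2 fold changes of clone 2 over chr8A in SL for the tested members of 14 gene lists, 1 point a gene, filled where the adjusted p was under 0.05, with a bar at the list's median. Lef1 at 1.70 and Hnf4a at -1.58 lie outside the axis and are written at its edges. The formative list lies wholly above 0 with a median of 0.42, and most called members of the cholesterol and fatty acid lists lie below 0.

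Of 16 tested genes of the primitive endoderm list, 7 were lower and 0 higher by edgeR, 6 lower and 0 higher by DESeq2, and 9 lower and 0 higher at an unadjusted p under 0.05, with a median of -0.20. Of the 7, 6 encode collagen, laminin or nidogen, matrix proteins that ESCs also make, while the matrix gene Sparc was not called (-0.058, adjusted p = 0.13). The remaining gene was Dab2, one of the primitive endoderm markers (-0.24, adjusted p = 0.029). Its call was lost by DESeq2 and without chr8A replicate 1 or clone 2 replicate 1 or 3. Col4a2, a chain of type IV collagen, had 69, 67.8 and 62.3 CPM in clone 2 and 92.1, 92.2 and 89.5 CPM in chr8A (-0.46 ± 0.042, adjusted p = 3.1e-16). Col4a1, the partner chain, had 106, 107 and 96.3 CPM in clone 2 and 132, 129.9 and 125 CPM in chr8A (-0.32 ± 0.037). Lama1, a laminin chain, had 70.9, 67 and 69.5 CPM in clone 2 and 88.5, 86.8 and 88.7 CPM in chr8A (-0.35 ± 0.038). The laminin chains Lamb1 (-0.19) and Lamc1 (-0.13) and nidogen Nid1 (-0.21) were lower by less, while the defining factors were at or below 5.22 CPM, Gata4 (-0.11), Gata6 (-0.89, adjusted p = 0.083, or 0.037 without clone 2 replicate 3) and Sox7 (0.021) not being called. The 10 primitive endoderm markers summed to 388 to 409 CPM in clone 2 and 406 to 422 CPM in chr8A. Most of this was Sparc, at 365, 386 and 364 CPM in clone 2 and 394, 379 and 389 CPM in chr8A. The part of these markers in the result was not tested.

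Of 14 genes of the trophoblast list, 9 were lower and 0 higher by edgeR and at an unadjusted p under 0.05, 7 were lower and 0 higher by DESeq2, and the median was -0.23. Besides Krt7, Krt18 had 262, 278 and 239 CPM in clone 2 and 318, 318 and 304 CPM in chr8A (-0.27 ± 0.036, adjusted p = 2.3e-07), and Krt19 had 85.2, 81.6 and 74 CPM in clone 2 and 95.5, 97.7 and 96.7 CPM in chr8A (-0.28 ± 0.041). Krt8, the partner of Krt18, had 277, 265 and 242 CPM in clone 2 and 288, 287 and 284 CPM in chr8A (-0.14, adjusted p = 0.00048), or -0.089 and 0.052 without clone 2 replicate 3. The receptor Fgfr2 (-0.32) and the factor Tfap2c (-0.18) were lower too, and Cdx2, Eomes and Gata3 were not called. The 10 trophoblast markers, which include 3 keratins, summed to 589 to 652 CPM in clone 2 and 717 to 743 CPM in chr8A, and their part in the result was not tested. Of 9 tested primitive streak genes, 0 were called by edgeR or by DESeq2, with 1 lower at an unadjusted p under 0.05 and 1 called lower without chr8A replicate 2. Of 9 neuroectoderm genes, Nes, an intermediate filament gene that ESCs also express, was the gene called, at 285, 282 and 274 CPM in clone 2 and 229.5, 216 and 215 CPM in chr8A (0.35 ± 0.03), and the marker sum was 387 to 396 CPM in clone 2 and 326 to 335 CPM in chr8A. Of 9 fibroblast markers, 2 were higher, among them Vim (0.34), and 3 lower, among them Thy1 (-0.63), the 3 becoming 1 without clone 2 replicate 3. No library had a read of Fap, and the 12 fibroblast markers summed to 143 to 148 CPM in clone 2 and 127 to 133 CPM in chr8A. Vim alone made up 89.0, 85.4 and 88.4 CPM of this in clone 2 and 68.6, 75.0 and 64.3 CPM in chr8A.

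Genes of adhesion and the cytoskeleton were split in the same comparison. Of 21 adhesion genes, 3 were higher and 7 lower (median 0.036). Cldn4, a tight junction claudin, had 208, 206 and 197 CPM in clone 2 and 251, 247 and 257 CPM in chr8A (-0.31 ± 0.03, adjusted p = 1.2e-14). Cdh3, which encodes P-cadherin, had 66.9, 67.3 and 69 CPM in clone 2 and 80.1, 82.4 and 88.2 CPM in chr8A (-0.30), and Cldn3 (-0.47) and the integrin gene Itgb3 (-0.66) were lower. Itga1, another integrin gene, at a low level, had 5.15, 4.14 and 5.55 CPM in clone 2 and 2.88, 1.48 and 2.34 CPM in chr8A (1.15). Cdh1, which encodes E-cadherin, was at 1036, 1046 and 1001 CPM in clone 2 and 978, 982 and 959 CPM in chr8A (0.079, adjusted p = 0.021), a call lost without any single library other than clone 2 replicate 3. Of 18 targets of SRF or YAP, 3 were higher and 7 lower (median -0.044), with Acta2 (-0.37), Myh9 (-0.21) and Cnn2 (-0.17) lower and Ajuba (0.21) higher. Clone 1 had a median of 0.090 over these 18 against chr8A. In clone 2 against clone 1, 10 of the 18 were called lower and 0 higher, as were 7 and 0 of the 21 adhesion genes. Among all genes tested, 2.71% were lower and 1.69% higher between the clones.

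Lipid synthesis genes were lower as a group, by small amounts. Of 28 genes of cholesterol synthesis and its regulator SREBP2, 17 were lower and 1 higher, with a median of -0.15. The 1 higher became 0 without chr8A replicate 1 or 2 or clone 2 replicate 2 or 3, and the lower count was 15 to 17 without any single library and 17 by DESeq2. No member reached 1.5-fold. Srebf2, which encodes SREBP2, had 361, 346 and 349.9 CPM in clone 2 and 399, 415 and 425 CPM in chr8A (-0.23 ± 0.028, adjusted p = 7.8e-11). Insig1, a sterol sensor and itself an SREBP2 target, had 81, 81.2 and 79.1 CPM in clone 2 and 95, 98.5 and 92.6 CPM in chr8A (-0.25 ± 0.037). In the order of the pathway, Hmgcs1 had 465, 479 and 468 CPM in clone 2 and 532, 527 and 538 CPM in chr8A (-0.18 ± 0.027), while Mvd differed by -0.32 and Lss by -0.24. Fdps, which makes farnesyl diphosphate, had 78.9, 83.5 and 87.4 CPM in clone 2 and 110.0, 109 and 107 CPM in chr8A (-0.38 ± 0.036, adjusted p = 3.6e-15). Sqle (-0.0037), Idi1 (0.0059) and Cyp51 (-0.019) were not called.

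Windows of the same length before the starts of Hmgcs1, Insig1 and Lss are shown because these genes moved together and SREBP2 and its partner NF-Y are known to bind close to the starts of such genes. Capitals mark CCAAT, the core of the NF-Y motif, read on either strand and so printed as ATTGG here, and TCACNCCAC, a form of the sterol regulatory element. No match of one overlaps a match of the other in these windows.
Hmgcs1, chr13:119690101-119690350, plus strand: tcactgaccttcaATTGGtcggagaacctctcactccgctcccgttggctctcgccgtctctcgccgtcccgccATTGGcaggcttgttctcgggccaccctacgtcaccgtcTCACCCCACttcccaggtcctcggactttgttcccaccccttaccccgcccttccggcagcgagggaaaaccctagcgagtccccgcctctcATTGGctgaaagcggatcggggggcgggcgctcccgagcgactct
Insig1, chr5:28071162-28071411, plus strand: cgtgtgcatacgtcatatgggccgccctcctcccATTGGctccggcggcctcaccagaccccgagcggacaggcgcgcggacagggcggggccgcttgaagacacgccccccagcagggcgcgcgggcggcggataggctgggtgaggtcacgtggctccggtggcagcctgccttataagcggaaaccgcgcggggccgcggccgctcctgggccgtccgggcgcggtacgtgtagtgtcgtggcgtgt
Lss, chr10:76531355-76531604, plus strand: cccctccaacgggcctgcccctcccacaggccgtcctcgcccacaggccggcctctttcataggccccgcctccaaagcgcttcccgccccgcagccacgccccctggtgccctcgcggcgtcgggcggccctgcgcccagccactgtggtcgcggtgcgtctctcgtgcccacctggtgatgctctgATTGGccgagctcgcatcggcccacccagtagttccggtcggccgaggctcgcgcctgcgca
The Hmgcs1 window holds 3 CCAAT matches and 1 TCACNCCAC match, and those of Insig1 and Lss hold 1 CCAAT match each. On either strand CCAAT was in 33.8% of all 32851 windows and in at least 1 window of 37.5% of 27025 genes, and in 18 of the 20 members of the cholesterol list with a window (90%). TCACNCCAC was in 1.05% of windows and in those of 1 of the 20 members. A match describes the letters only.

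Of 16 genes of fatty acid synthesis, 11 were lower and 1 higher (median -0.13). Scd1 and Scd2, desaturases that make monounsaturated fatty acids and resemble each other (8.3% and 6.46% shared), were both lower. Scd1 had 109.5, 116 and 112 CPM in clone 2 and 164, 157 and 154 CPM in chr8A (-0.49 ± 0.034, adjusted p = 5.2e-23). Scd2 had 689, 723 and 674 CPM in clone 2 and 832, 832 and 822 CPM in chr8A (-0.25 ± 0.028). Fads1 (-0.22), the citrate carrier Slc25a1 (-0.15) and Srebf1 (-0.16) were lower by less. Fasn, the synthase, was the gene called higher (0.077, adjusted p = 0.026), and it lost its call without any single library other than chr8A replicate 3, with adjusted p-values of 0.066 to 0.16.

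Genes of the amino acid response run by ATF4 were more often higher than lower in SL. Of 34 tested, 18 were higher and 4 lower, with a median of 0.11 and no member at 1.5-fold, and without chr8A replicate 3 the 18 became 11, while the 4 became 2 without chr8A replicate 2 or clone 2 replicate 3. Atf4 had 449, 443 and 435 CPM in clone 2 and 381, 405 and 373 CPM in chr8A (0.19 ± 0.028, adjusted p = 3.3e-08). Stc2, a secreted glycoprotein of stressed cells, had 40.1, 40.8 and 37.7 CPM in clone 2 and 28.9, 29.6 and 24.1 CPM in chr8A (0.52 ± 0.06, adjusted p = 1.3e-11). Chac1, which degrades glutathione, had 40.6, 39.3 and 37 CPM in clone 2 and 29.1, 31.6 and 29.4 CPM in chr8A (0.37 ± 0.059). The amino acid carriers Slc7a3 (0.27) and Slc38a2 (0.19) and the pseudokinase Trib3 (0.31) were higher, and Ddit4, which restrains mTORC1 (-0.18), and Pycr1, which makes proline (-0.23), were lower. Also lower were Asns (-0.072, adjusted p = 0.049) and Gdf15 (-0.56, adjusted p = 0.027), and both lost the call without some single libraries. The classical targets Ddit3 (0.0076), Phgdh (0.051) and Psph (0.018, 9.87% shared) were not called. The letters TGATGNAA, a form of the composite site that ATF4 binds, were on either strand in a window before the start of 9 of 30 members (30%), and in those of 3.91% of 27025 genes. Of these 9, Atf3 (0.27), Chac1 and Vldlr (0.23) were called higher and Asns and Pycr1 lower. Slc7a11, Fgf21, Nupr1 and Pck2 were not called, and the higher genes Atf4, Stc2 and Trib3 had no match. Of 20 genes of serine synthesis and folate one-carbon metabolism, 9 were higher and 3 lower (median 0.11). Mat2a, which makes S-adenosylmethionine, had 458, 444 and 459 CPM in clone 2 and 396, 390.0 and 388 CPM in chr8A (0.21 ± 0.027). Mthfd1, a cytosolic folate enzyme, was lower, with 392, 382 and 374 CPM in clone 2 and 445, 437 and 440.3 CPM in chr8A (-0.20 ± 0.027), as was the glycine decarboxylase gene Gldc (-0.19).

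Central carbon genes showed no common direction. Of 25 genes of glucose uptake and glycolysis, 5 were higher and 7 lower (median -0.049), and the 5 became 2 without chr8A replicate 1 or clone 2 replicate 3 and 3 without chr8A replicate 3 or clone 2 replicate 2. Slc2a3, a glucose transporter, was lower, with 1765, 1777 and 1752 CPM in clone 2 and 2243, 2095 and 2226 CPM in chr8A (-0.31 ± 0.027, adjusted p = 3.8e-17). Hk1 (-0.32), Aldoc (-0.49) and Eno3 (-0.23) were lower, and Tpi1 (0.13) was higher. Of 24 genes of the tricarboxylic acid cycle and glutamine entry, 5 were higher and 5 lower (median 0.012). The isocitrate dehydrogenases that make NADPH were both lower, Idh1 with 115, 111 and 111 CPM in clone 2 and 136, 139 and 139 CPM in chr8A (-0.30 ± 0.032), and Idh2 with 89.5, 90.4 and 93.6 CPM in clone 2 and 110.3, 113 and 118 CPM in chr8A (-0.31 ± 0.035). Glutamine synthetase, Glul, was higher (0.26). Of 22 genes of the NADH shuttles and NAD metabolism, 4 were higher and 2 lower (median 0.021), and the 4 became 1 without chr8A replicate 3 and 2 without clone 2 replicate 2 or 3. Of 74 nuclear genes of the respiratory chain, 14 were higher and 2 lower (median 0.044), and Ndufa4 was the member at 1.5-fold. The 14 became 6 to 9 without any single one of the 6 libraries, lowest without chr8A replicate 1 or clone 2 replicate 1, and the 2 became 4 without chr8A replicate 3 and 1 without chr8A replicate 2 or clone 2 replicate 1 or 3. Of 28 HIF1 targets, 4 were higher and 5 lower, or 3 without chr8A replicate 2 (median 0.012).

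Of 34 lysosomal genes, 11 were lower and 4 higher, or 2 without chr8A replicate 2 (median -0.055), with Neu1 (-0.35), Gaa (-0.22) and Npc2 (-0.19) lower and the regulator Tfe3 higher (0.18). Of 29 genes of G1 control, 9 were higher and 3 lower (median -0.014). Mycn had 375, 359 and 367 CPM in clone 2 and 289, 306 and 285 CPM in chr8A (0.32 ± 0.029, adjusted p = 4.4e-16), Cdk6 was higher (0.26) and Ccnd3 lower (-0.22). Of 24 p53 targets, 5 were higher and 8 lower (median -0.033), the BH3 genes moving apart with Pmaip1 at 0.28 and Bbc3 at -0.32. Of 25 genes of glutathione and NRF2, 6 were higher and 3 lower (median 0.043), and Gpx1, a peroxidase, had 185, 177 and 177 CPM in clone 2 and 130.5, 133 and 124 CPM in chr8A (0.47 ± 0.055, adjusted p = 1.7e-05). Of 12 genes that set or read DNA methylation, 5 were higher and 1, Zfp57, lower (median 0.086). Zfp57 guards imprinted methylation and had 141, 146 and 144 CPM in clone 2 and 158, 163 and 159.7 CPM in chr8A (-0.16), while Trim28, its corepressor, was at 0.13. Of 23 germline genes silenced by methylation, 5 were higher, among them Rhox5 (0.46), and 2 lower (median 0.079). The 5 became 3 without chr8A replicate 3 or clone 2 replicate 2, and the 2 became 1 without chr8A replicate 1 or clone 2 replicate 3. Of 11 genes of the 2-cell-like state, 1 was higher and 0 lower by edgeR and by DESeq2, and 2 were higher and 0 lower at an unadjusted p under 0.05. The 1 higher became 0 without any single library other than chr8A replicate 1. Of 9 genes read for sex chromosome dosage, 7 were higher and 1 lower, or 0 without chr8A replicate 3 or clone 2 replicate 2 (median 0.13), with Ddx3x at 0.26 on the X and Uty at 0.21 and Ddx3y at 0.15 on the Y.

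Clone 1, the other SLC16A1 line, was set against the same 3 chr8A libraries, so its values are given side by side and the clones were compared directly. In SL, 2850 genes (16.6%) were called in clone 1 against chr8A, 1516 higher (8.83%) and 1334 lower (7.77%). Between clone 2 and clone 1, 756 genes (4.4%) were called, 291 higher (1.69%) and 465 lower (2.71%) in clone 2, or 201 higher and 535 lower with RLE factors in place of TMM. Without any single library of the 2 clones the count was 371 to 603, being 371 without clone 2 replicate 3, 393 without clone 1 replicate 1, 468 without clone 1 replicate 3 and 491 without clone 2 replicate 1. Of the 4618 genes called for clone 2 against chr8A, 526 (11.4%) also differed between the clones. Slc16a1 was at -1.08 in clone 2 and -0.21 in clone 1, a difference of -0.87 (adjusted p = 7.2e-40). Peg3 was alike in both, at -2.19 in clone 2 and -2.18 in clone 1, with a difference of -0.0043 ± 0.036. Plagl1 was at -7.31 in clone 2 and -0.88 in clone 1, and the difference was -6.44 (adjusted p = 2.2e-58). Zrsr1, an imprinted gene with 8.28% of its sequence shared, was at -0.013 in clone 2 and 0.79 in clone 1, a difference of -0.80 (adjusted p = 1.6e-07). Of the 17 formative genes, 8 were called higher and 0 lower in clone 2 than in clone 1. Their median against chr8A was 0.42 in clone 2 and 0.24 in clone 1. Lef1 was higher in clone 2 than in clone 1 by 0.22 (adjusted p = 0.046) and Otx2 by 0.36 (adjusted p = 1.3e-06). Cdh2 (0.061) and Pou3f1 (0.077) were not called between the clones. Krt18 was at -0.27 in clone 2 and 0.15 in clone 1 (difference -0.42, adjusted p = 1.1e-10), and Krt19 at -0.28 in clone 2 and 0.079 in clone 1 (difference -0.35). Col4a1 was at -0.32 in clone 2 and 0.0052 in clone 1 (difference -0.33, adjusted p = 1.1e-10). Of the lipid genes, Scd2 (-0.26), Scd1 (-0.19) and Fdps (-0.14) were lower in clone 2 than in clone 1, and Insig1 (-0.071) was not called.

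In SL2i, in 2 clone 2 and 2 chr8A libraries separate from those in SL, 3531 genes (20.6%) were called, 1673 higher (9.74%) and 1858 lower (10.8%) in clone 2. Of the 4618 genes called in SL, 2918 (63.2%) had the same sign in SL2i, beside 56.0% of all genes tested. Of those 4618, 1078 were called with the same sign and 433 with the opposite sign in SL2i. The test of the difference between media called 2898 genes (16.9%), 1577 with a higher (9.18%) and 1321 with a lower (7.69%) value in SL, and 1430 (31.0%) of the 4618. Slc16a1, Peg3 and the chromosome 8 stretch were alike in both media by value, Peg3 being at -2.19 in SL and -2.27 in SL2i (difference 0.084, adjusted p = 0.5). Plagl1 was at 41.2 and 43 CPM in clone 2 and 391 and 390.3 CPM in chr8A in SL2i, a log2 fold change of -3.21, against -7.31 in SL (difference -4.10, adjusted p = 4.7e-31). Igf2 turned round. It had 45.1 and 45.7 CPM in clone 2 and 2.71 and 3.26 CPM in chr8A in SL2i (3.93), against -0.78 in SL (difference -4.71, adjusted p = 1.2e-17). H19 did likewise, at 3.31 in SL2i and -1.49 in SL (difference -4.79, adjusted p = 3.7e-16).

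The formative genes did not keep a common direction in SL2i. Of the 17, 5 were called higher and 2 lower there, and the difference between media was called for 9. Otx2 was at -0.25 in SL2i (adjusted p = 0.48) and 0.69 in SL, a difference of 0.94 (adjusted p = 0.0012). Cdh2 was at -0.39 in SL2i (adjusted p = 0.084) and 0.87 in SL, a difference of 1.26 (adjusted p = 3.1e-08). Lef1 stayed higher, at 0.85 in SL2i, by less than in SL (difference 0.85, adjusted p = 0.00076). Dnmt3b was higher in both, by 0.61 in SL2i and 0.27 in SL (difference -0.34, adjusted p = 2.6e-08). Among naive factors lower in SL, Klf2 (-0.56) and Dppa3 (-1.07) were also lower in SL2i, while Tfcp2l1 was at 0.081 and Esrrb at 0.28 there, with differences between media of -0.43 (adjusted p = 3.7e-13) and -0.41 (adjusted p = 2.9e-12). The ERK outputs Spry4 and Dusp4 were higher in SL2i, Spry4 at 2.64 (difference -2.40, adjusted p = 2.7e-27) and Dusp4 at 1.60 (difference -1.77, adjusted p = 0.0004). Krt18 was at 2.51 in SL2i and -0.27 in SL (difference -2.78, adjusted p = 1.1e-16). Of the 34 genes of the ATF4 response, 2 were called higher and 14 lower in SL2i, with a median of -0.16. Among all genes tested, 9.74% were higher and 10.8% lower there. The difference between media was called for 17 of the 34, beside 16.9% of all genes tested. Thsd7a had 307 reads in clone 2 and 8 in chr8A in SL2i, a ratio of 38.7 (95% counting interval 19.4 to 90.4), and its log2 fold changes differed by -3.62 (adjusted p = 3.5e-13). Of the 28 cholesterol genes, 12 were called lower and 4 higher in SL2i, with a median of -0.17. Of the 16 fatty acid genes, 8 were called lower and 0 higher there, with a median of -0.22. Among them Insig1 (-0.34) and Scd1 (-0.65) were lower in SL2i, Srebf2 was not called (0.025) and Lss was higher (0.25).

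**Figure D5:**
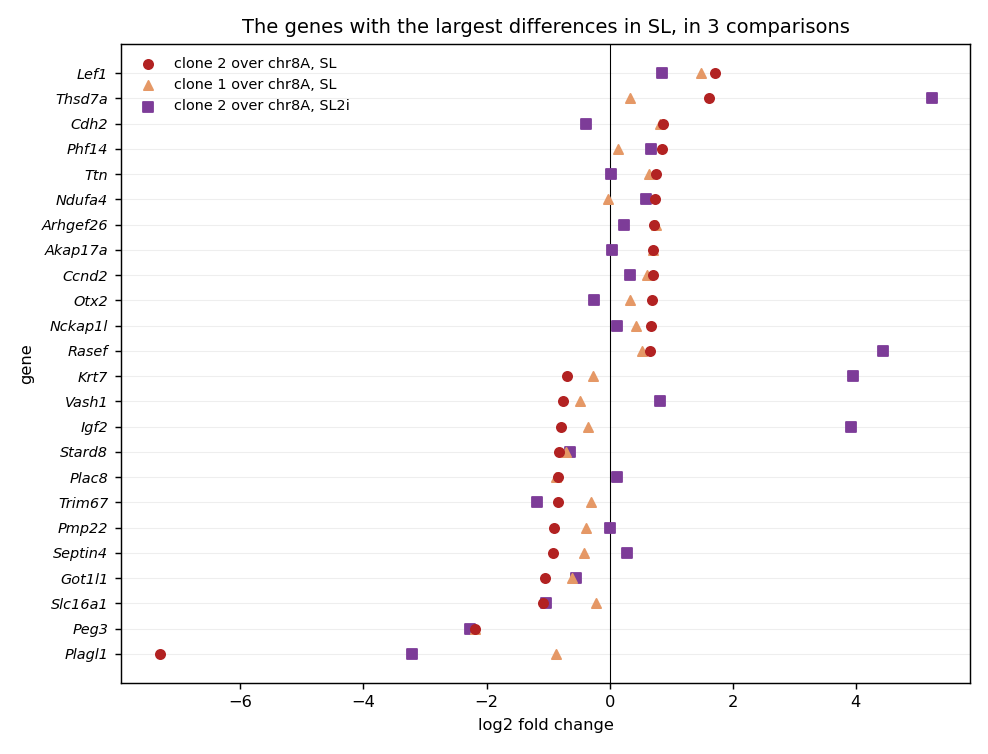
Log2 fold changes of the 12 genes highest and the 12 lowest in clone 2 against chr8A in SL among called genes whose mean level was 3 log2 CPM or more, beside the same genes in clone 1 against the same chr8A libraries and in clone 2 against chr8A in SL2i. Peg3 lies between -2.27 and -2.18 in all 3 comparisons, Plagl1 is lowest in clone 2 in SL, and Igf2 and Krt7 lie above 0 in SL2i.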

How the data were processed

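RNA was extracted with TRIzol and libraries of polyadenylated, strand-marked RNA were made and sequenced, per the labels' protocols. The deposited values are raw read counts per gene, which the authors made with DRAGEN 3.10 on build GRCm39 and featureCounts of Subread, per the submitters' processing notes. The strand setting and annotation release are not given in the sources used here, so reads of overlapping genes can be split wrongly. The deposited table also gives gene length, which was not used as a value.

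From the counts, edgeR 4.0.16 in R 4.3.3 (limma 3.58.1) kept 17178 genes (filterByExpr), scaled libraries with TMM factors and fitted all 15 libraries with 1 mean per line and medium, which share 1 estimate of the spread. Contrasts were tested with the quasi-likelihood test of edgeR, p-values being adjusted by Benjamini and Hochberg's method over all genes tested, and DESeq2 1.42.0 was an alternative. The scripts were tested on simulated data with planted differences for clone 2 against chr8A in SL. Of 77 genes planted at 1.2-fold, 36 were recovered (46.8%), as were 59 of 70 at 1.5-fold and 42 of 53 at 2-fold. Of the 154 genes called in the simulated data, 17 were false, a larger share than the adjusted p threshold is meant to allow. Total counts ranged from 9784408 to 30145771. Intervals of read ratios cover counting error only. For named genes, the share of 30-base words found in other genes' transcripts is the shared sequence given.

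Named genes were Slc16a1, the 12 highest and 12 lowest called genes whose mean level was 3 log2 CPM or more and whose groups did not overlap, the members of each list with the smallest adjusted p or a role the text needs, and the 5 largest differences between clones and between media. Members and lists were chosen with earlier results of these data known. Gene order and promoter windows are from RefSeq on GRCm38.p6, with 39397 genes (96.5%) matched, and no coordinates were converted. Libraries of other experiments of the study were not used here. Some genes of these lists and rules are not reported here.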

Additional observations from a re-analysis of the deposited data

Results flagged for a closer look

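The test of the difference between media called 2898 genes for clone 2 against chr8A, and each value below is the log2 fold change in SL minus that in SL2i. It was positive for Cdh2 (1.26), Otx2 (0.94), Lef1 (0.85), Ttn (0.73), Akap17a (0.66), Nckap1l (0.54) and Arhgef26 (0.48). It was negative for Plagl1 (-4.10), which was lower in clone 2 in both media, and for Thsd7a (-3.62), which was higher in both. For Igf2 (-4.71) and Vash1 (-1.57) the direction turned round between media.

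Some of the largest values rest on few reads in SL2i. Car4, a carbonic anhydrase, had a difference of -7.56, with 24 reads in clone 2 and 0 in chr8A in SL2i, at least 8.06-fold higher against a floor of 3 reads over the group. Krt7 had a difference of -4.65, with 33 reads in clone 2 and 2 in chr8A, a ratio of 16.6 (95% counting interval 4.25 to 143). In SL these were at -0.17 for Car4 and -0.70 for Krt7.

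The direct test of clone 2 minus clone 1 in SL called 756 genes. Clone 2 was above clone 1 for Thsd7a (1.28), Ndufa4 (0.76), Phf14 (0.72), Otx2 (0.36) and Lef1 (0.22). It was below clone 1 for Plagl1 (-6.44), Slc16a1 (-0.87), Zrsr1 (-0.80), Trim67 (-0.55), Pmp22 (-0.53), Septin4 (-0.49), Got1l1 (-0.45), Igf2 (-0.44) and Krt7 (-0.43).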

How the results depend on the processing

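With all libraries thinned to equal depth, clone 2 against chr8A in SL gave 2900 called genes (1461 higher, 1439 lower) and clone 2 minus clone 1 gave 419 (125 higher, 294 lower). DESeq2 called 487 genes between the clones (125 higher), and a fit of only the libraries compared called 1223 (503 higher, 720 lower). Leaving out 1 library of the groups compared gave 3667 to 3973 genes for clone 2 against chr8A in SL (1735 to 2097 higher, 1813 to 1958 lower), 371 to 603 between the clones (94 to 169 higher, 277 to 440 lower), 2358 to 2811 in SL2i (1064 to 1354 higher, 1294 to 1457 lower) and 2142 to 2709 for the difference between media (1109 to 1456 higher, 1006 to 1331 lower). In SL2i this leaves a lone library, assumed to vary like the other groups. Same-numbered libraries of clone 2 and chr8A had correlations of 0.061, -0.015 and 0.11 between their deviations, so the numbers were not read as pairs. With the replicate number as a block, 4810 genes were called in SL, 886 between the clones, 3640 in SL2i and 3059 between media. No named gene called in SL changed direction in up to 13 settings. Of 366 such genes, 242 kept their call in every setting that tested them and 124 lost it in at least 1. Without genes of the chromosome 8 stretch, an alternative chosen after seeing the data, 9 of 20 naive genes were lower. Medians of the autosomes and the X ranged from -0.037 to 0.050. The cause of these changes was not tested.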
